A study of Mus musculus with 6 samples.

Results

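RNA of 10 genes for matrix proteins other than collagens was followed in the retina of EFV-treated and control 5XFAD mice. The genes were taken by symbol from a given list (Fn1, Fbn1, Dcn, Lum, Bgn, Ogn, Thbs1, Emilin1, Sparc and Postn). All 10 were found among the 19401 genes listed in the files. The members were chosen with earlier results of these data known. 5XFAD mice carry transgenes for mutant human amyloid precursor protein and mutant human presenilin 1 and are a model of Alzheimer's disease; all animals of both groups were hemizygous for these transgenes, on the B6SJL background, and free of the retinal degeneration alleles Crb1 rd8 and Pde6b rd1. The EFV group received efavirenz (EFV), an anti-HIV drug given here at a low dose, in drinking water with Tween 80 from 3 to 9 months of age, and the control group received water with Tween 80 alone. Animals of both groups were 9 months old when the retina was taken. The labels give the dose as 0.08 mg/kg of body weight, and the study's methods give a slightly higher daily dose. Each group had 3 libraries. For each of them tissue of 5 to 6 mice was pooled, males according to the methods, with 1 retina plus the retinal pigment epithelium (RPE) from each animal, and replicate error below therefore means the variation among pools. No wild type mice were among the samples, so the comparison is between treated and untreated transgenic animals only.

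The extracellular matrix is the protein scaffold around cells and vessels. Fibronectin (Fn1) and fibrillin 1 (Fbn1) build fibrils on which other proteins assemble, and EMILIN1 (Emilin1) is a glycoprotein at the surface of elastic fibres. Decorin (Dcn), lumican (Lum), biglycan (Bgn) and osteoglycin (Ogn) are small leucine-rich proteoglycans, which bind collagen fibrils and set their spacing and which also bind growth factors. Thrombospondin 1 (Thbs1), SPARC (Sparc) and periostin (Postn) are matricellular proteins: they are secreted into the matrix but mostly act on cells, through receptors, growth factors and proteases, and thrombospondin 1 is best known in the eye as an inhibitor of vessel growth. In the retina such proteins are found mostly around vessels, at the inner limiting membrane, and in Bruch's membrane beneath the RPE.

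The libraries held between 23455167 and 24590278 expected counts, and no pair of them was alike within counting error. Rod markers were abundant in every library, with summed levels from 23840 to 25890 FPKM (fragments scaled to the length of the gene and to the size of the library). The RPE markers, with all 8 detected, summed to 23.5 FPKM in control 2 and to between 44.6 and 58.1 in the other libraries. The 9 lens markers summed to 3016 FPKM in control 3 and to between 24.6 and 140.9 in the other libraries, so these control libraries stood apart and results that rest on them are given with and without them. In bulk tissue, fewer cells of a type and less RNA per cell cannot be told apart.

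Thbs1, Emilin1 and Postn were the 3 members for which all EFV libraries lay above all control libraries. Fn1 was at close to the same level in both groups, and Ogn varied most between pools among the members that could be tested. Of the 10 members, 9 had at least 10 counts in at least 3 libraries and entered the edgeR quasi-likelihood fit, and 5 of them had a log2 fold change (EFV over control) above 0. Among all 15537 genes tested, 50.5% had a log2 fold change above 0. No member passed an adjusted p of 0.05 by edgeR (Benjamini-Hochberg, BH, over the whole table). This was also true of all genes, of which 0.0% passed, and the adjusted p of every tested member was 0.999. The study used looser limits, an unadjusted p of 0.05 or less with a change of at least 7%. When these limits were applied to the edgeR test, 2 members passed them (Thbs1 and Emilin1, both higher in EFV), as did 3.01% of all genes tested in either direction and 1.47% of all genes in the higher direction. The same 2 members had an unadjusted p of 0.05 or less by edgeR, by DESeq2 and by limma. Of the 15537 genes tested, 472, 270 and 495 did so with these tools. The tools were run on the same libraries, so they are not independent of each other. Of the members, 0 passed the adjusted threshold with any of these tools. All EFV libraries lay above all control libraries for 3 members and below them for 0, against 3.95% of all genes tested for the higher direction and 8.14% for either direction. Both counts of members are small, and the members were chosen with earlier results of these data known. Thbs1 and Emilin1 were already in the study's own selection from these libraries. The counts are therefore not a blind comparison with all genes. The median log2 fold change was 0.07 over the 9 tested members and 0.0012 over all genes tested, and without control 2 or EFV 2 it was below 0 (-0.03 and -0.05).

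**Figure D1:**
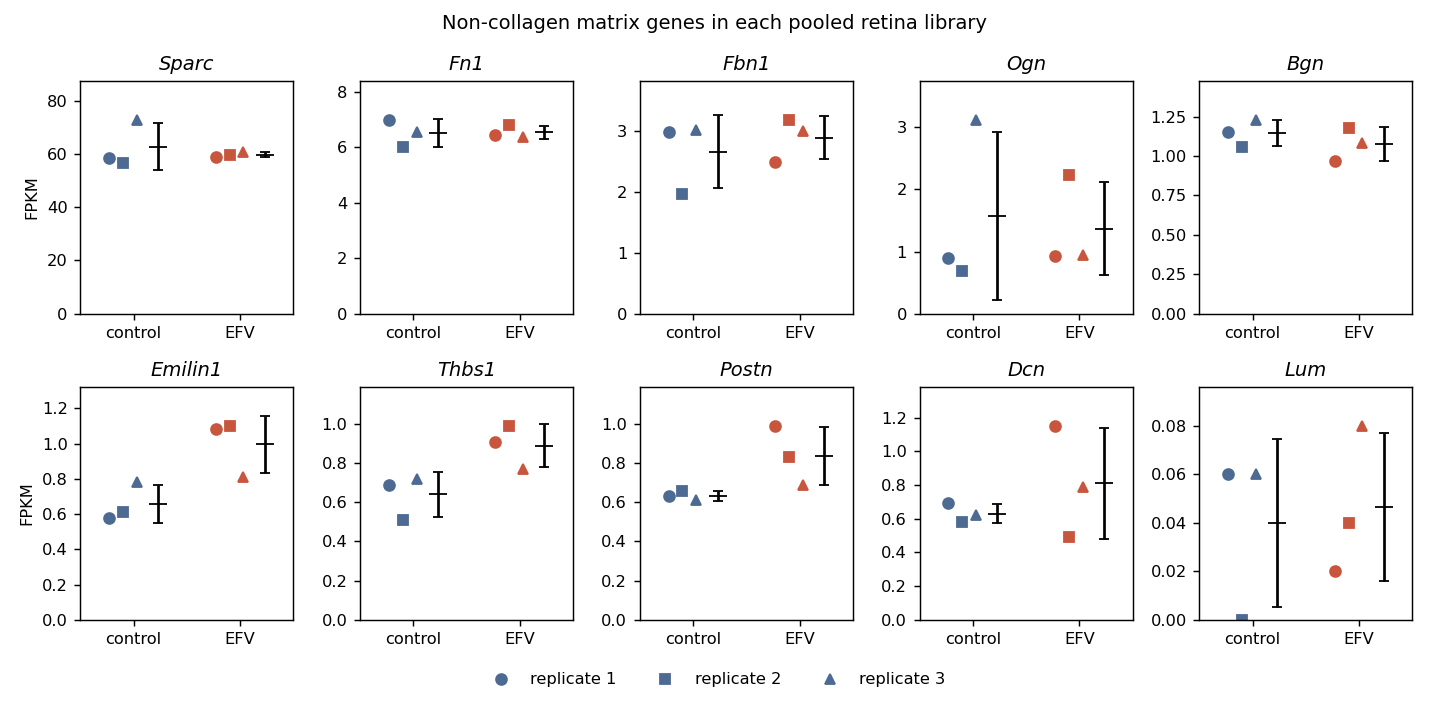
FPKM of the 10 members in each library, in order of mean level, with a separate vertical axis from 0 for each gene. Symbols are the 3 pools per group and the horizontal bars with whiskers are the mean and SD; the EFV points lie above all control points for Emilin1, Thbs1 and Postn, and 1 pool in each group is high for Ogn.

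**Figure D2:**
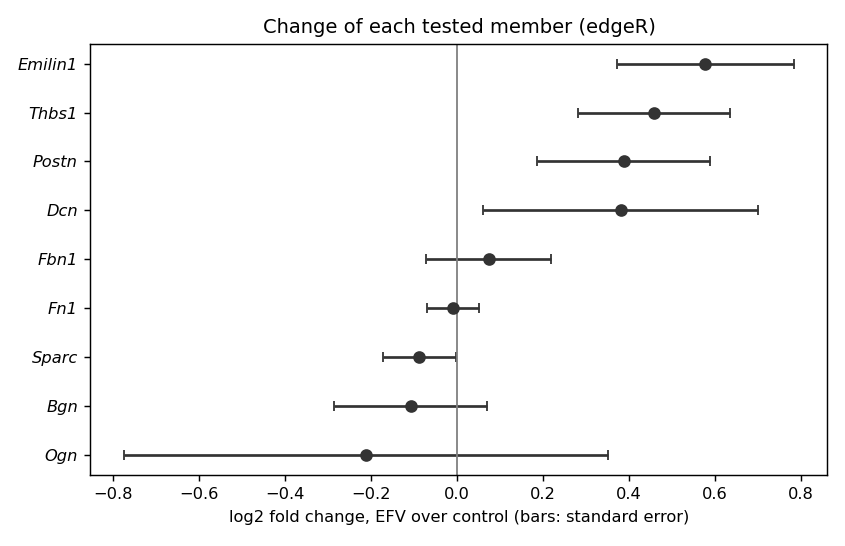
Log2 fold change of EFV over control for the 9 tested members by edgeR, with whiskers of 1 standard error. Emilin1 (0.58) and Thbs1 (0.46) lie farthest above 0, and Ogn (-0.21) has the widest error.

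The levels of the 10 genes spanned a wide range. Sparc, whose product binds collagen and regulates its deposition, had by far the highest level, from 56.7 to 72.8 FPKM, and made up 77.9% to 82.4% of the summed FPKM of the 10 members in a library. Fn1 came next with 6.01 to 7.0 FPKM, then Fbn1 with 1.97 to 3.19, and the ranges of these 3 genes over the libraries did not overlap. Below Fbn1 came Ogn, Bgn, Emilin1, Thbs1, Postn and Dcn in order of mean FPKM. From Fbn1 down to Dcn the ranges of neighbours overlapped, so that their order is not fixed by these libraries. In control 3, Ogn was above Fbn1 (3.12 against 3.03 FPKM). Lum was last, at 0 to 0.08 FPKM, and its range did not overlap that of Dcn. In each library between 4 and 6 of the 10 members were below 1 FPKM, and all 10 together were between 0.0195% and 0.0248% of the summed FPKM of the library.

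Thbs1 (Entrez 21825; GRCm38, chromosome 2, 118111876 to 118127133, plus strand) encodes thrombospondin 1. It was measured at 0.69, 0.51 and 0.72 FPKM in control 1, 2 and 3 and at 0.91, 0.99 and 0.77 FPKM in EFV 1, 2 and 3. These levels stand for 98, 70 and 102 expected counts in the control libraries and 129, 140 and 108 in the EFV libraries. The lowest EFV library, EFV 3, was above the highest control library, control 3, so the groups did not overlap. The mean was 0.64 ± 0.114 FPKM in control and 0.89 ± 0.111 FPKM in EFV (SD, n = 3 each), and edgeR gave a fold change of 1.37 (log2 fold change 0.46, SE 0.18, unadjusted p = 0.0286). The log2 fold change stayed above 0 in all 17 alternative analyses, and the limits were passed in 13 of them. Without control 2, EFV 1 or EFV 2 the unadjusted p by edgeR rose to 0.101, 0.0671 and 0.103, so the limits were no longer passed. Control 2, the lowest library for Thbs1, was also the library with the lowest RPE marker sum; without it the log2 fold change was 0.33. The part of the RPE content in this difference was not tested.

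Emilin1 (Entrez 100952; chromosome 5, 30913402 to 30921277, plus strand) was measured at 0.58, 0.61 and 0.78 FPKM in the 3 control libraries and at 1.08, 1.1 and 0.81 FPKM in the 3 EFV libraries. The counts were 49, 49 and 65 in control and 90, 91 and 67 in EFV. EFV 1 and EFV 2 were well above all control libraries, whereas EFV 3 was barely above control 3 (2.74 against 2.68 CPM, the counts scaled to the size of the library). The mean was 0.657 ± 0.108 FPKM in control and 0.997 ± 0.162 FPKM in EFV (SD, n = 3 each), and edgeR gave a fold change of 1.49 (log2 fold change 0.58, SE 0.21, unadjusted p = 0.0207), the largest among the tested members. The limits were passed in 13 of 17 alternative analyses. They were not passed without control 1, control 2, EFV 1 or EFV 2, where the unadjusted p by edgeR lay between 0.0572 and 0.0697. Thbs1 and Emilin1 are both among the genes that the study selected as changed on these same libraries, so the present values are not independent evidence of their direction.

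Postn (Entrez 50706; chromosome 3, 54361109 to 54391037, plus strand) encodes periostin, a protein that fibroblasts make during wound repair. Its level was 0.63, 0.66 and 0.61 FPKM in control and 0.99, 0.83 and 0.69 FPKM in EFV. The counts were 48, 48 and 47 in control against 76, 63 and 52 in EFV. All EFV libraries were above all control libraries, but EFV 3 was close to control 2. The control pools were close to each other (mean 0.633 ± 0.0252 FPKM) and the EFV pools were spread more widely (0.837 ± 0.150 FPKM, SD, n = 3 each). The log2 fold change was 0.39 (SE 0.20, edgeR unadjusted p = 0.0867), so Postn did not pass the limits. Without EFV 3, which was the lowest EFV library for Emilin1, Thbs1 and Postn, the log2 fold change was 0.51 and the unadjusted p by edgeR 0.0371. Without EFV 1, the highest library for Postn, the log2 fold change was 0.25 and the unadjusted p by edgeR 0.294. With any other library left out, that p lay between 0.118 and 0.163, so the limits were passed only without EFV 3.

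**Figure D3:**
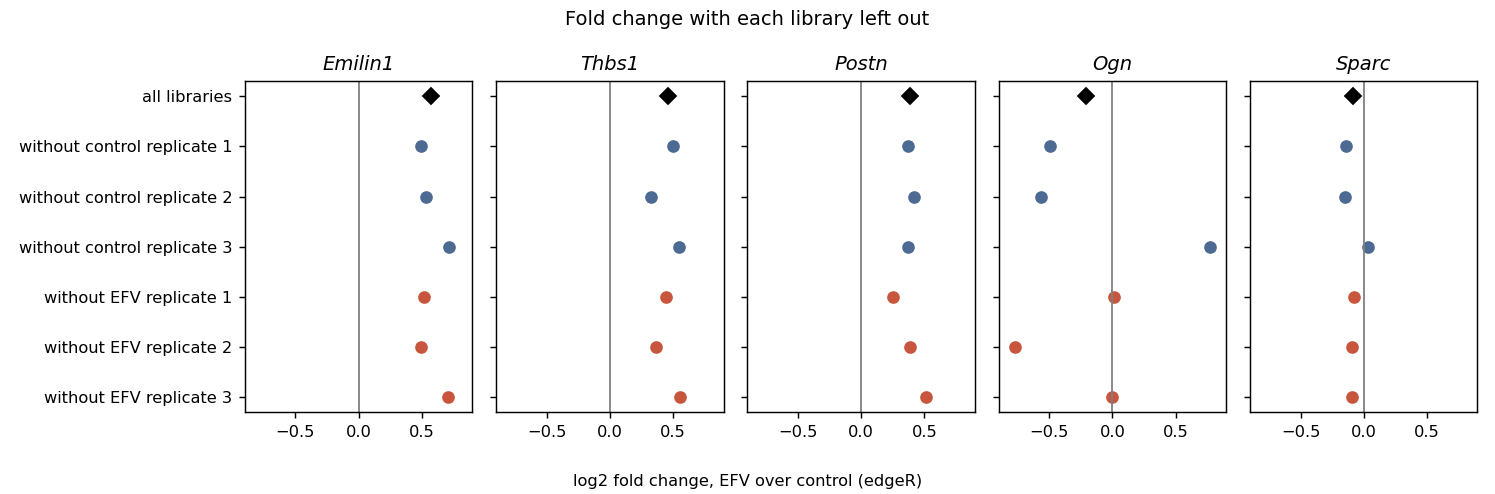
Log2 fold change of EFV over control (edgeR) for Emilin1, Thbs1, Postn, Ogn and Sparc with all libraries (diamond) and after removal of 1 library (blue, a control library; red, an EFV library). The values of Emilin1, Thbs1 and Postn stay above 0, and that of Ogn moves from -0.21 to 0.77 without control 3.

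The proteoglycan genes gave 4 different pictures. Dcn (Entrez 13179; chromosome 10, 97479609 to 97518143, plus strand) was at 0.69, 0.58 and 0.62 FPKM in control and at 1.15, 0.49 and 0.79 FPKM in EFV, from 22 to 52 counts. EFV 1 was the highest and EFV 2 the lowest of all 6 libraries, so the groups overlapped (log2 fold change 0.38, SE 0.32, edgeR unadjusted p = 0.264). Lum (Entrez 17022; chromosome 10, 97565128 to 97572703, plus strand), the neighbour of Dcn on the chromosome, had 3, 0 and 3 counts in control and 1, 2 and 4 in EFV. With 6 against 7 counts in all, the ratio of EFV over control was 1.16 and its 95% exact counting interval ran from 0.333 to 4.17, so a difference in Lum was not detectable at this depth. Intervals of this kind cover counting error only.

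Bgn (Entrez 12111; chromosome X, 73483602 to 73495933, plus strand) was even across the libraries, at 1.15, 1.06 and 1.23 FPKM in control and 0.97, 1.18 and 1.08 FPKM in EFV, from 56 to 71 counts. The groups overlapped and the log2 fold change was -0.11 (SE 0.18, edgeR unadjusted p = 0.555). Ogn (Entrez 18295; chromosome 13, 49608046 to 49624501, plus strand) was at 0.90, 0.69 and 3.12 FPKM in control and at 0.92, 2.23 and 0.95 FPKM in EFV, from 40 to 189 counts. It was high in 1 pool of each group, control 3 and EFV 2, which were 3.28 and 2.35 times the highest of the other libraries (EFV 3, 0.95 FPKM). Its means of 1.57 ± 1.35 FPKM in control and 1.37 ± 0.748 FPKM in EFV (SD, n = 3 each) differed by less than their spread (log2 fold change -0.21, SE 0.56, edgeR unadjusted p = 0.716). Without control 3 the log2 fold change was 0.77 (unadjusted p = 0.1) and without EFV 2 it was -0.77. The summed lens markers were highest in control 3 (3016 FPKM) and lowest in EFV 2 (24.6 FPKM), and the part of lens tissue in the Ogn levels was not tested.

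The starts of 6 members were in the table of RefSeq promoters (GRCm38.p6), and the 250 bases before the start of 3 of them, outside annotated exons, are shown because they differ in base composition and motifs: Postn, whose groups did not overlap, Ogn, the tested member that varied most between pools, and Bgn, a proteoglycan gene with an even level. They run from chr3:54360857-54361106, chr13:49607765-49608014 and chrX:73483351-73483600, all on the plus strand, 5′ to 3′, with matches to the motifs searched in capitals.
Postn: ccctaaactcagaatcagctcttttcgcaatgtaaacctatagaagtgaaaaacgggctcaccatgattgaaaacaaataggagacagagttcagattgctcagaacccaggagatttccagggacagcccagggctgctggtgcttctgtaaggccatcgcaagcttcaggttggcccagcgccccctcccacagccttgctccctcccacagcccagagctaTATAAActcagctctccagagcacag
Ogn: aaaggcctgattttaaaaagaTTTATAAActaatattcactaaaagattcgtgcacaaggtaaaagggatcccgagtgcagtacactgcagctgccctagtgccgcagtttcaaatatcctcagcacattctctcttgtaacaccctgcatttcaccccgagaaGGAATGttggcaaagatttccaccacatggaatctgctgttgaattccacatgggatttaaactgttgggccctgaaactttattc
Bgn: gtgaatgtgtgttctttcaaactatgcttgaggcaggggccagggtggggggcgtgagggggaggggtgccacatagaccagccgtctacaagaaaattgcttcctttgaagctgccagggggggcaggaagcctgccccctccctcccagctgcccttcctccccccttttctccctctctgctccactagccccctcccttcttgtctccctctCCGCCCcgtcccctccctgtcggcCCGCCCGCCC
The motifs, searched on both strands, were the TATA box core TATAAA, the CCAAT box CCAAT, the GC box GGGCGG, the AP-1 motif TGANTCA, the TEAD motif GGAATG, the SMAD motif GTCTAGAC and the E-box CACGTG. Postn has a 2nd start in the table, whose window (chr3:54359017-54359266, GC content 40.4%) held no match to any motif searched and is not shown. The window shown for Postn held TATAAA 26 to 21 bases before the start, a motif found in 12.4% of all 32851 promoters of this length. Ogn held 2 overlapping matches to the same motif, on opposite strands, 229 to 222 bases before the start, and GGAATG 86 to 81 bases before the start, which 12.6% of promoters held. Bgn held 3 GC boxes, the last 2 of which overlap, and 32.7% of promoters held at least 1. The CCAAT box, AP-1 motif, SMAD motif and E-box had no match in these 3 windows and were found in 33.9%, 6.75%, 0.167% and 6.02% of all promoters. The GC content was 52.0% for Postn, 42.0% for Ogn and 64.4% for Bgn, with a median of 52.4% over all promoters. These matches are a description of the letters in the window.

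Fbn1 and Fn1 encode the large fibril proteins. Fbn1 (Entrez 14118; chromosome 2, 125300594 to 125507993, minus strand) had 400, 331 and 474 counts in control and 366, 508 and 415 in EFV, and 2.99, 1.97 and 3.03 against 2.5, 3.19 and 3.0 FPKM. Control 2 was the lowest and EFV 2 the highest library, and the groups overlapped (2.66 ± 0.601 FPKM in control, 2.90 ± 0.356 FPKM in EFV; SD, n = 3 each). The log2 fold change was 0.07 (SE 0.14, edgeR unadjusted p = 0.625), and it was -0.03 without control 2 and -0.07 without EFV 2. The gene is quantified from 2 transcripts, 1 of them named BGI_novel in the files, and the length that the authors used for it varied between libraries by a factor of 1.31, so its FPKM moved with the estimated share of the transcripts as well as with its counts. By CPM, control 3 and EFV 2 were the highest libraries of Fbn1 (19.5 and 21.0, against 14.4 to 17.0 in the other libraries), as they also were of Ogn. They ranked highest for Bgn and Sparc too, but there EFV 2 was close to the next library. The values were 2.81 against 2.72 CPM for Bgn and 148.3 against 148.2 CPM for Sparc.

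Fn1 (Entrez 14268; chromosome 1, 71585520 to 71653200, minus strand) was at 7.0, 6.01 and 6.57 FPKM in control and at 6.45, 6.81 and 6.38 FPKM in EFV, with 1120 to 1364 counts. Its log2 fold change of -0.01 had the smallest error among the members (SE 0.06, edgeR unadjusted p = 0.875), and its sign turned in 6 of 17 alternative analyses. Sparc (Entrez 20692; chromosome 11, 55394500 to 55423183, minus strand) was at 58.6, 56.7 and 72.8 FPKM in control and at 58.9, 59.4 and 60.7 FPKM in EFV. Control 3 alone was high, at 1.25 times the median of the other 5 libraries in CPM, and the means were 62.7 ± 8.80 FPKM in control and 59.7 ± 0.906 FPKM in EFV (SD, n = 3 each). The log2 fold change of Sparc was -0.09 (SE 0.09, edgeR unadjusted p = 0.328), and without control 3 it was 0.03. Control 3 was the library with lens markers at 3016 FPKM, and the part of lens tissue in its Sparc level was not tested.

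With a Poisson model, whose only error is that of counting, 3 members (Thbs1, Emilin1 and Sparc) passed an adjusted p of 0.05, against 13.1% of all genes tested. For Sparc the direction was lower in EFV and the adjusted p of the Poisson model (BH) was 0.000112, whereas the edgeR value without control 3 was above 0.

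**Figure D4:**
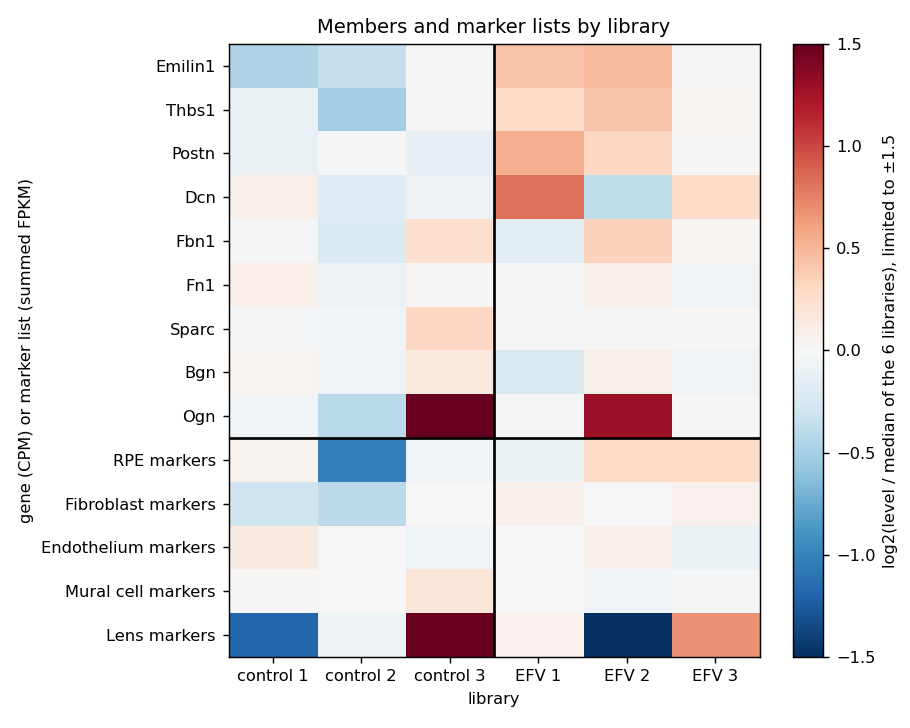
Log2 of the level in each library over the median of the 6 libraries, for the 9 tested members (CPM) and for 5 marker lists (summed FPKM), with the colour limited to ±1.5. Control 2 is low for RPE markers (23.5 FPKM) and for several members, and control 3 is high for lens markers (3016 FPKM), Ogn and Sparc.

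Of the 10 members, 6 had their lowest FPKM in control 2 and 3 each had their highest in control 3 and EFV 2. The fibroblast markers, with all 7 detected, summed to 2.19 to 2.90 FPKM in control and 2.86 to 3.03 in EFV. All 5 that could be tested had a log2 fold change above 0, but the median was only 0.03. Of the fibroblast markers only Col1a2, a type I collagen chain, passed the limits, and without control 2 none did and 4 of 5 were above 0. All 8 RPE markers had a log2 fold change above 0 (median 0.48), and Rpe65 and Lrat, enzymes of the visual cycle, passed the limits. Without control 2 all 8 were still above 0, with a median of 0.25, and Rpe65 (0.29) passed the limits but Lrat (0.42) did not. All 8 lens markers tested were lower in EFV and passed the limits, with a median log2 fold change of -3.54; without control 3, 5 of 8 were lower, 0 passed and the median was -0.02. The 4 astrocyte markers were above 0 (median 0.29) and 0 passed the limits, and without control 2, 3 of 4 were above 0. The 7 mural cell markers summed to 20.8 to 23.5 FPKM in control and 20.0 to 20.6 in EFV. Of them 6 had a log2 fold change below 0, and 0 passed the limits. Within this list, the smooth muscle gene Acta2 was at 4.41 FPKM in control 3 and at 1.36 to 2.04 FPKM in the other libraries. Tagln, the only one above 0, was higher in all EFV libraries than in all control libraries (log2 fold change 0.28, SE 0.19). Rgs5 was lower in all EFV libraries by CPM (log2 fold change -0.12, SE 0.06). Without control 3, 4 of 7 were below 0 and Rgs5 passed the limits (edgeR unadjusted p = 0.0442). The 6 skeletal muscle markers summed to 5.53 to 6.60 FPKM in control and 6.74 to 7.67 in EFV, and the endothelial markers overlapped between groups (42.5 to 48.6 and 41.4 to 46.8 FPKM). Of the 8 endothelial markers 7 had a log2 fold change below 0, and 0 passed the limits. The part of these cell types in the levels of the members was not tested.

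Genes around the members in the matrix were taken from 8 lists with 132 genes, of which 118 were tested. Of these 118, 70 had a log2 fold change above 0, and 3 (2.54%) passed the limits, all higher in EFV, against 3.01% of all genes tested; the median log2 fold change was 0.02. The count depended on single libraries: without control 1 only 1 of the 118 passed in the higher direction and 2 in the lower, without control 2 it was 2 and 2, without control 3 it was 6 and 0, without EFV 1 it was 6 and 1, without EFV 2 it was 4 and 4, and without EFV 3 it was 3 and 1. By edgeR with BH adjustment 0 of them passed an adjusted p of 0.05.

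Among elastic fibre and fibronectin partners, 11 of 16 tested genes were above 0 and 0 passed the limits. The most abundant were Vtn (vitronectin) with a mean of 493.7 FPKM and Efemp1 (a fibulin) with 27.9 FPKM; their log2 fold changes were -0.04 and 0.04. Ltbp4, Fbln5 and Ltbp3, a fibulin and a pair of latent TGF-beta binding proteins, had the smallest p in the list (0.137, 0.147 and 0.152 unadjusted by edgeR). Among other small leucine-rich proteoglycans, 5 of 9 tested genes were above 0 and 0 passed the limits. Prelp, the most abundant with a mean of 13.1 FPKM, had a log2 fold change of 0.0016.

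Among other matricellular genes, 6 of 15 tested genes were above 0. Tnxb (tenascin XB) passed the limits, at 1.62, 1.51 and 1.91 FPKM in control and 2.2, 1.73 and 2.81 FPKM in EFV (log2 fold change 0.37, SE 0.13, edgeR unadjusted p = 0.0187). By FPKM the groups overlapped, since EFV 2 was below control 3, whereas by CPM they did not. Without control 1, control 2 or EFV 3 Tnxb no longer passed the limits (log2 fold changes of 0.34, 0.33 and 0.24). Sparcl1, the closest relative of Sparc in the list and the most abundant gene there, was at a mean of 83.2 FPKM (log2 fold change -0.06). Thbs2, Thbs3 and Thbs4, other thrombospondins, were at means of 0.177, 0.967 and 0.305 FPKM. Their log2 fold changes were 0.08, -0.31 and 0.43 (SE 0.27, 0.19 and 0.29), and none of them passed the limits.

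Among matrix receptors, 14 of 22 were above 0 and Cd47, a receptor of thrombospondin 1, passed the limits. It was at 15.9, 15.1 and 15.0 FPKM in control and at 18.8, 16.8 and 16.9 FPKM in EFV, so the groups did not overlap. Its means were 15.3 ± 0.524 and 17.5 ± 1.12 FPKM (SD, n = 3 each; log2 fold change 0.16, SE 0.05, edgeR unadjusted p = 0.00998). Cd47 passed the limits whichever library was left out, with log2 fold changes from 0.11 to 0.19. In the TGF-beta pathway, which drives the expression of many matrix genes, 6 of 15 were above 0 and 0 passed the limits; Tgfb2, the most abundant ligand, was at a mean of 17.5 FPKM with a log2 fold change of -0.02.

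Of the proteases, inhibitors and cross-linkers, 11 of 17 tested genes were above 0 and 0 passed the limits. Timp2 and Timp3, inhibitors of metalloproteinases, were the most abundant (means of 34.0 and 17.4 FPKM; log2 fold changes of 0.02 and 0.07). Of the basement membrane glycoproteins, 8 of 15 were above 0 and 0 passed the limits. Nid1, a linker between laminin and collagen networks, was at 3.42 FPKM in control 3 and at 0.38 to 0.70 FPKM in the other libraries, so it was high in the same pool as Sparc and Ogn. Of the fibrillar and associated collagens, 9 of 9 tested genes were above 0 with a median log2 fold change of 0.17, with between 6 and 8 of 9 when a library was left out, and 7 of 9 with limma on log2(FPKM + 0.1). Col1a2 passed the limits, at 0.62, 0.53 and 0.87 FPKM in control and 0.95, 1.05 and 0.89 FPKM in EFV (log2 fold change 0.50, SE 0.20, edgeR unadjusted p = 0.0312), but not without control 1, control 2, EFV 1 or EFV 2 (log2 fold changes of 0.44, 0.36, 0.52 and 0.42). Tnxb, Cd47 and Col1a2 were also selected as changed by the study on these libraries.

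The genes most like the members were sought among 12289 genes with a mean of at least 1 FPKM, by Pearson's r of log2 CPM with the mean standardised level of the 9 tested members over the 6 libraries. That mean level was lowest in control 2 (-0.883) and highest in EFV 2 (0.669), with control 3 at 0.489 and EFV 3 at -0.197. The 5 most alike were Serpina3n, an inhibitor of serine proteases (r = 0.984), Timp3 (0.983), Pbxip1 (0.981), Nfya (0.979) and March9 (0.977), followed by Smarcc1, Ttc39c, Rnf10, Erp29 and Pcbp1. Serpina3n was at 2.6, 1.6 and 3.5 FPKM in control and 2.98, 3.71 and 2.28 FPKM in EFV. With 6 libraries and this many genes, such values of r are a description of the shared profile, in which control 2 is low.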

How the data were processed

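Retinal RNA of control and EFV-treated 5XFAD mice (3 libraries each) was sequenced. The authors aligned the reads with Bowtie2 v2.2.5 to mm10 (the submitters' processing notes also name HISAT2 v2.0.4) and deposited the expected counts per gene made with RSEM v1.2.12, in which a read with several possible genes is split between them. The deposited FPKM values divide these counts by the transcript length and the total of the library; the smallest listed is 0.01. The release of the annotation and the strandedness are not given in the sources used here, so reads of Fn1, Fbn1 and Thbs1 and of an annotated gene on the opposite strand cannot be told apart where their exons overlap. Library construction is described with poly-A selection in the labels and random primers in the methods.

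Expected counts were rounded, and the 15537 of 19401 genes that reached 10 counts in 3 or more libraries were tested, two-sided, by edgeR 4.0.16 under R 4.3.3 (quasi-likelihood), with TMM scaling, group as the only term and BH adjustment; the biological coefficient of variation was 0.0983. The smallest two-sided p that an exact permutation of these 6 libraries allows is 0.1, so p-values rest on the model. The study's limits rest on the Poisson distribution and were applied here to the edgeR p. The alternatives, 17 in all, were RLE, upper quartile and total count scaling, no filter and filterByExpr, DESeq2 1.42.0, limma 3.58.1 on log2(FPKM + 0.1) and log2(FPKM + 1), the replicate number as a term, a Poisson model, genes with an Entrez identifier only, and each library left out; the values of the lists with a library left out were added after seeing the data. The edgeR test was tested on simulated data. Coordinates are from GENCODE vM21 (GRCm38), and promoters from RefSeq.

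The members and lists were chosen with earlier results of these data known. Named were all members, and of each list at most 3 genes with the smallest p and 2 with the highest mean FPKM. Thbs2, Thbs3, Thbs4, Aspn, Mfap4, Kera and Epyc were named after their values were seen. Counting error weighs most on Lum, then on Dcn, Postn, Bgn and Emilin1.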

Additional observations from a re-analysis of the deposited data

How the results depend on the processing

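Thbs1, Emilin1, Postn, Dcn and Bgn kept the sign of their log2 fold change under all 17 alternatives. Without EFV 1, however, the values of Dcn and Bgn came close to 0 (0.04 and -0.03). Of the combinations of a tested member and an alternative, 132 kept the sign and the side of the study's limits, 8 lost the call, 2 gained it and 11 changed sign. Members past an adjusted p of 0.05 numbered 0, and 3 under the Poisson model; without 1 library each they were 0 throughout. Members past the study's limits numbered 2, and 0 to 3 when a library was left out (0 without control 2, EFV 1 or EFV 2, 1 without control 1, and 3 without EFV 3, where Postn passed too). The median member log2 fold change lay between -0.0514 (without EFV 2) and 0.364 when a library was left out, and was -0.03 without control 2. Over all genes, 0 passed an adjusted p and 0 to 1 when a library was left out (1 without EFV 1), 11 passed with DESeq2 and 2043 with the Poisson model. The limits were passed by 467 genes, by 269 with DESeq2, by 2305 with the Poisson model and by 389 to 576 when a library was left out.

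Fn1 changed sign under total count scaling (0.0046), limma with the pseudocounts of 0.1 and 1 (0.0065 and 0.0055), and without control 1, EFV 1 or EFV 3, Fbn1 without control 2 or EFV 2, Ogn without control 3 or EFV 1, and Sparc without control 3. With a library left out, the log2 fold change ran from -0.0598 to 0.0356 for Fn1, from -0.0748 to 0.201 for Fbn1, from -0.773 to 0.77 for Ogn and from -0.151 to 0.0327 for Sparc. Genes past the limits were higher in EFV in 48.8% of cases with TMM and in 64.4%, 60.7% and 60.1% with total counts and limma at the pseudocounts of 0.1 and 1.

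The replicate numbers of the labels were not treated as pairs: libraries with the same number correlated in their deviations with r of 0.125, 0.0832 and 0.0992, although each library correlated best with its own number. With the replicate block, 1 member (Emilin1) passed the limits, and for Thbs1 the unadjusted p by edgeR was 0.0545. Counts of 22 to 91 per library limit Dcn, Emilin1 and Postn, and Lum could not be tested. The causes of these changes were not tested.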

Other observations

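Ogn lies in a row of proteoglycan genes on mouse chromosome 13 (GRCm38), with Omd (osteomodulin), Aspn (asporin) and Ecm2 upstream of it on the same strand. The midpoints of Omd, Aspn and Ecm2 are 28.6, 60.3 and 97.5 kb from that of Ogn. In control 3 and EFV 2, where Ogn was at 3.12 and 2.23 FPKM, Omd was at 0.37 and 0.32 FPKM, Aspn at 0.37 and 0.45 FPKM and Ecm2 at 0.31 and 0.30 FPKM, none of them the highest library of its gene. Omd and Ecm2 were lower in all EFV libraries than in all control libraries by CPM, as were 650 of all 15537 genes tested. Of the 118 tested genes of the 8 lists, 5 were higher and 3 lower in this way. Omd had 14, 23 and 15 counts in control and 12, 13 and 12 in EFV. Ecm2 had 36, 32 and 27 counts in control and 21, 26 and 21 in EFV. The log2 fold changes were -0.52 (SE 0.33) and -0.51 (SE 0.25), and neither passed the study's limits (edgeR unadjusted p = 0.154 and 0.0719).

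Mfap4, a microfibril-associated protein, was at 2.18, 1.57 and 2.79 FPKM in control and at 0.98, 5.50 and 1.32 FPKM in EFV. EFV 2 and control 3 were thus its highest libraries, as they were for Ogn and, by CPM, for Fbn1.

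Dcn and Lum lie next to Kera (keratocan) and Epyc (epiphycan), proteoglycan genes of the cornea and of cartilage, on chromosome 10. Over all 6 libraries Dcn had 191 counts, Lum 13, Kera 5 and Epyc 2, so the last 3 were close to 0 in these pools.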
